A study of Mus musculus with 7 samples.

Results

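Solitary zinc-finger genes were followed in open-chromatin maps of neural progenitors. They were taken as the protein-coding genes of the RefSeq annotation of GRCm38 whose symbol is Zfp followed by digits only, on chromosomes 1 to 19, with no other such gene within 100 kb of their span. Of 360 genes with such a symbol on these chromosomes, 152 met the rule, out of 20665 protein-coding autosomal genes in all. The other 208 are called clustered Zfp genes here. Just inside the distance limit lay Zfp936 and Zfp715, with the next such gene 104 kb away, and just outside it lay Zfp932 and Zfp605, at 97.8 kb.

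The study compared CD15-positive neural progenitors, flow-sorted at E14.5 from the dorsal telencephalon of mouse embryos (CD-1 strain), between L3mbtl3 -/- embryos (KO, 4 libraries) and wild-type embryos (WT, 3 libraries). L3mbtl3 codes for a chromatin reader with malignant brain tumour repeats, which the series title links to Polycomb repressive complex 1 (PRC1). The labels name no promoter, Cre driver or dosing, and do not say whether each library came from its own embryo, so p-values measure the spread between libraries, which may be technical. The assay was ATAC-seq, which reads accessible DNA through the places where a transposase can cut and tag it, and the authors deposited a list of broad peaks for each library.

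Most genes named Zfp encode C2H2 zinc-finger proteins, in which each finger folds around a zinc ion and contacts a few bases of DNA. Many also carry a KRAB domain, which recruits the corepressor Trim28 and the histone methyltransferase Setdb1 to silence transposable elements, and such genes commonly arise by tandem duplication and sit in clusters. Genes that stand alone include old, conserved transcription factors, such as Zfp143, an activator of small nuclear RNA genes and of many housekeeping promoters, and Zfp423, a cofactor of Ebf factors with a role in brain development. The shared symbol does not guarantee the fold: Zfp36 encodes tristetraprolin, a CCCH zinc-finger protein that binds mRNA.

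The members lay on all 19 autosomes, with the most on chromosome 7, which held 17, and chromosome 8, which held 16. Their spans ran between 2286 bp and 456017 bp. Solitary refers to the symbol rule alone, since 30 of the 152 had a protein-coding gene with a Gm-plus-digits symbol within 100 kb. A gene counts as called in a library that holds an end peak, meaning a peak no farther than 1 kb from the first or last base of its span.

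The KO lists held 9827, 7111, 3366 and 17362 peaks in libraries 1 to 4, and the WT lists held 7448, 11394 and 6458 in libraries 1 to 3. Read depth is unknown from peak lists, and in the longest list and in the shortest list the shares of genes called were the highest and the lowest. KO library 3 and WT library 3 also had the narrowest peaks, with median widths of 140 and 142 bp against 163 to 172 bp in the other libraries. L3mbtl3 itself had no end peak in any library, which does not test the deletion. Dorsal progenitor markers held a peak in the locus (the span plus 50 kb to each side) for 13 of 14 genes, 9 of them in at least 4 libraries, where 70.7% and 29.0% of all genes did, with 10 to 41 peaks in all per KO library and 12 to 20 per WT library. Of markers of other cells, 4 of 4 endothelial, 4 of 5 microglial or blood and 6 of 6 cortical neuron genes held a locus peak in at least 1 library. So did 2 of 3 intermediate progenitor, 5 of 8 ventral telencephalon and 2 of 4 meningeal genes. None of the endothelial and microglial or blood genes reached 4 libraries. In at least 4 libraries 1 of 6 cortical neuron, 1 of 3 intermediate progenitor, 2 of 8 ventral telencephalon and 1 of 4 meningeal genes held one. An end peak in at least 4 libraries was found for 0 of 14 dorsal progenitor and 2 of 8 ventral telencephalon genes, against 6.69% of all genes. No marker of the other lists had one. The part of such cells in the results was not tested.

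The sequences before the starts of 4 solitary genes are shown. Zfp958, Zfp691 and Zfp143 were chosen as the members with an end peak in all 7 libraries. Zfp277, 1 of 6 members with one in 6 libraries, was chosen because its protein was reported to bind the PRC1 subunit Bmi1 in mouse fibroblasts. Each line gives the 250 bases before the annotated start in RefSeq (GRCm38.p6), 5′ to 3′ on the strand of the gene. Capitals mark GGGCGG (a site of Sp and Klf factors), CCGGAAG (a site of Ets factors) and CCAAT (the box bound by NF-Y) on either strand.
Zfp958, chr8:4612920-4613169, plus strand: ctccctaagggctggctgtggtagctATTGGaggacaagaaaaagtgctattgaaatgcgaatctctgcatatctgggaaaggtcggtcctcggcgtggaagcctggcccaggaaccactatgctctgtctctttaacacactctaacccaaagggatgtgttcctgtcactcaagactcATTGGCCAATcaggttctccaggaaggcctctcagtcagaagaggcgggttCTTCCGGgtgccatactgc
Zfp691, chr4:119174196-119174445, minus strand: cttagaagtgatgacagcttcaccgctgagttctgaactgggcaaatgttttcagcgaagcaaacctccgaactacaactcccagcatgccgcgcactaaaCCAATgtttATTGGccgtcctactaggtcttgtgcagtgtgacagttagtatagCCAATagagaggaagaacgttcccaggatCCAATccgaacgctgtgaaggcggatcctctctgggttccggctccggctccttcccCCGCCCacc
Zfp143, chr7:110061452-110061701, plus strand: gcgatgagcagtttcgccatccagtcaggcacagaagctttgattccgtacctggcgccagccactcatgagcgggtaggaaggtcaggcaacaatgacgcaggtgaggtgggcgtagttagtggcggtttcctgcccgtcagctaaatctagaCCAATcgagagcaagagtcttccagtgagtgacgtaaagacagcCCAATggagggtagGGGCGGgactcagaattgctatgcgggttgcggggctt
Zfp277, chr12:40445791-40446040, minus strand: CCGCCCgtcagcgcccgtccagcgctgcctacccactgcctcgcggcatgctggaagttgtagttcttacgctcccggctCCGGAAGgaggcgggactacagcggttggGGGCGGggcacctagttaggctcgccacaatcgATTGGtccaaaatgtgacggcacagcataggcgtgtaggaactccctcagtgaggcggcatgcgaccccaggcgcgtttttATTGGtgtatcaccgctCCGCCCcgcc
At all 4 genes a peak overlapped these bases in every library that called the gene. Zfp691 held CCAAT boxes in both orientations, while Zfp277 held all 3 marked motifs.

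Of the 3 genes called in every library, Zfp958 had the highest fold in each list but that of KO library 3, where it had the lowest. The authors' fold enrichment of its end peak, a ratio of the signal in the peak over the peak caller's background, was 7.33, 9.18, 5.21 and 8.02 in KO libraries 1 to 4, against 9.72, 11.5 and 8.27 in WT libraries 1 to 3. The peak ranked high in every list, with a −log10 q percentile between 85.7 and 99.6. Fold values belong to each list and are given as a description, since lists of different depth are not on a common scale. Zfp691 had folds of 5.53, 6.36, 5.69 and 6.52 in KO libraries 1 to 4, against 5.20, 6.29 and 5.14 in WT libraries 1 to 3. Zfp143 had folds of 4.47, 4.41, 5.48 and 4.90 in KO libraries 1 to 4, against 4.44, 4.30 and 5.59 in WT libraries 1 to 3. The values of the genotypes overlapped at all 3 genes. At Zfp143 the higher values, 5.48 and 5.59, came from KO library 3 and WT library 3, the shortest list of each genotype.

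Of the 152 solitary genes, 54 (35.5%) had an end peak in at least 1 library, where the share of all 20665 genes was 24.1%. Genes with an end peak in at least 4 of the 7 libraries are called recurrent. There were 27 recurrent members (17.8%), against 6.69% of all genes. The 27 became 5 with peaks of −log10 q of at least 5 alone, and 13 with the lists cut to equal length, and the mean excess over all genes in the share called, 8.11 points, became 3.21 at that q. Recurrent genes of any name were not counted at these settings. In all 7 libraries 3 members were called (1.97%), against 1.17% of all genes. Clustered Zfp genes stood higher still, with 46 of 208 recurrent (22.1%) and 104 called at least once. These shares were not tested against the rest of the genome, and none is claimed as particular to solitary genes. The other 98 members had no end peak in any library.

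**Figure D1:**
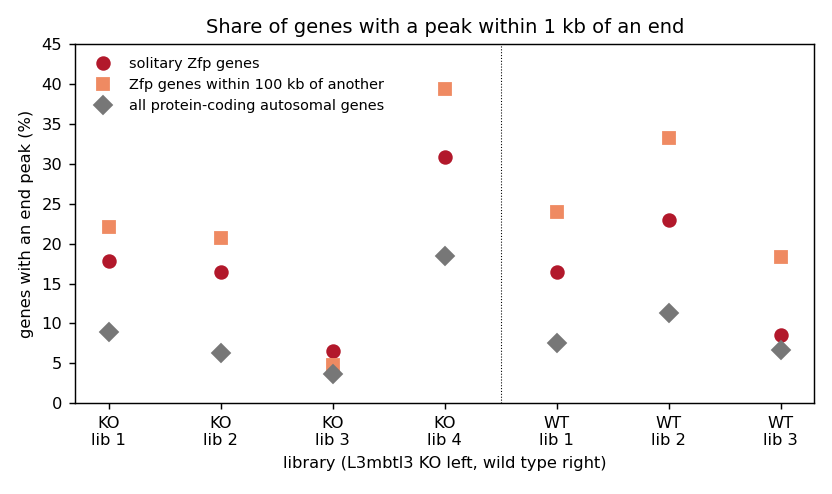
Percent of genes with a peak within 1 kb of an end (vertical axis) in each of the 4 KO and 3 WT libraries (horizontal axis), for 152 solitary Zfp genes (circles), 208 clustered Zfp genes (squares) and all 20665 protein-coding autosomal genes (diamonds). Circles lie between 6.58% and 30.9%, above the diamond of the same library each time, and KO library 3 is the only library where the circle lies above the square.

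Library by library, 27, 25, 10 and 47 solitary genes were called in KO libraries 1 to 4, against 25, 35 and 13 in WT libraries 1 to 3. As shares these were 17.8%, 16.4%, 6.58% and 30.9% in KO libraries, against 16.4%, 23.0% and 8.55% in WT libraries. The highest and the lowest share both came from KO libraries, so the range of the WT values lay within that of the KO values. The mean was 17.9% ± 10 in KO (SD, n = 4) and 16.0% ± 7.25 in WT (SD, n = 3), a difference of 1.92 percentage points that was smaller than the SD of either genotype. Without KO library 4 the difference was −2.41 points, and without WT library 3 it was −1.81. The plot of shares by library shows that all protein-coding genes were also highest in KO library 4 and lowest in KO library 3, at 8.98%, 6.26%, 3.69% and 18.4% in KO libraries, against 7.54%, 11.3% and 6.70% in WT libraries. Divided by that share, the solitary genes stood at 1.98, 2.63, 1.78 and 1.68 times all genes in KO libraries, against 2.18, 2.03 and 1.28 times in WT libraries. The mean ratio was 2.02 ± 0.426 in KO and 1.83 ± 0.484 in WT (SD, n = 4 and 3), a difference of 0.187 that was also within the spread.

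The end peaks lay at gene starts. For the 160 end peaks of members whose strand the promoter table gives, counted per gene and library, 158 (98.8%) lay at the start end and 2 at the other end, which belonged to Zfp91 in KO library 4 and Zfp640 in WT library 2. For all protein-coding genes the share at the start end was 93.0%. The centre of a start-end peak lay at a median of −48.5 bp from the start end of the span (quartiles −89.5 and 12.2), and 132 of the 158 lay within 250 bp. The median by library ran from −130 to −32.0 bp in KO libraries and from −55.5 to −43.0 bp in WT libraries. All end peaks, placed or not, numbered 183, with a median width of 160 bp and folds between 3.35 and 11.5.

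**Figure D2:**
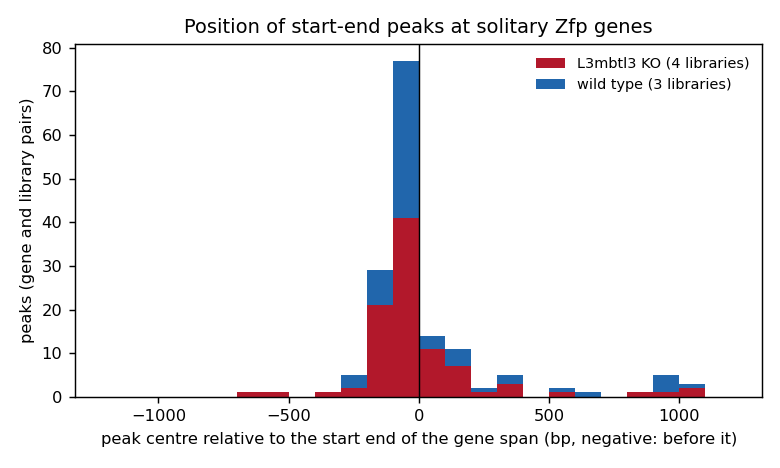
Number of start-end peaks at solitary Zfp genes (vertical axis, gene and library pairs, 100-bp bins) by the distance of the peak centre from the start end of the gene span (horizontal axis, bp, negative before the start), stacked for KO (red) and WT (blue). The bins next to the start hold most of the 158 peaks, and a small group between 862 and 1066 bp stems from Zfp959 and Zfp800.

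Recurrent members fell into genes of known roles and less studied genes. Among transcription factors and chromatin proteins, Zfp281, a regulator of pluripotency in mouse embryonic stem cells, was called in 2 of 4 KO and 2 of 3 WT libraries. Its folds were 6.64 and 4.54 in KO libraries 1 and 4, against 5.01 and 4.96 in WT libraries 1 and 2, so the genotypes overlapped. Zfp687, whose human counterpart works with the chromatin reader ZMYND8, was called in 3 of 4 KO and 2 of 3 WT libraries. Zfp384, which encodes a nuclear matrix transcription factor, was called in 2 of 4 and 2 of 3, and Zfp800 likewise. Zfp622, linked to ribosome assembly, was called in 3 of 4 and 1 of 3.

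Some recurrent peaks could belong to a neighbour. A peak that also lay within 1 kb of an end of another gene was found at 4 of the 27, namely Zfp277 with Dock4, Zfp91 with Lpxn, Zfp654 with Cggbp1 and Zfp189 with Mrpl50. Zfp277 had folds of 6.12, 5.33, 5.39 and 6.68 in KO libraries 1 to 4, against 6.47 and 7.06 in WT libraries 1 and 2, and no peak in WT library 3. Zfp91, which encodes a ubiquitin ligase with zinc fingers, had start-end folds of 6.0, 6.97, 4.49 and 5.94 in KO libraries 1 to 4, against 6.15 and 6.97 in WT libraries 1 and 2, and no end peak in WT library 3. In both genes every KO library and 2 of 3 WT libraries called the start, and the folds of the genotypes overlapped. Zfp654 had folds of 7.04, 8.41 and 9.32 in KO libraries 1, 2 and 4, against 5.85, 6.76 and 4.97 in WT libraries 1 to 3. Here the KO values lay above all WT values among the libraries that called it, while KO library 3 had no peak. The folds are not on a common scale and were not tested.

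Of the less studied genes, Zfp317 had folds of 8.78, 8.50 and 8.77 in KO libraries 1, 2 and 4, against 7.19, 8.37 and 5.18 in WT libraries 1 to 3, and Zfp788 had 5.75, 6.09 and 5.06 in KO libraries 1, 2 and 4, against 6.03, 6.17 and 6.01 in WT libraries 1 to 3. At Zfp317, as at Zfp654, the KO values lay above all WT values among the libraries that called it. At Zfp788 the genotypes overlapped. Neither Zfp317 nor Zfp788 had a peak in KO library 3, and these folds were not tested either. Zfp160 was called in 4 of 4 KO and 2 of 3 WT libraries. Zfp267, Zfp189, Zfp330, Zfp386, Zfp808, Zfp40 and Zfp873 were each called in KO libraries 1, 2 and 4 and in WT libraries 1 and 2. That pattern, absence from KO library 3 and WT library 3 together, held for 12 of the 27 recurrent members (44.4%) and for 23.8% of all recurrent genes. The remaining recurrent members were Zfp966, called in 3 of 4 KO and 2 of 3 WT libraries, Zfp433, in 3 of 4 and 2 of 3, Zfp959, in 2 of 4 and 3 of 3, Zfp945 and Zfp938, each in 2 of 4 and 2 of 3, and Zfp973, in 3 of 4 and 1 of 3.

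**Figure D3:**
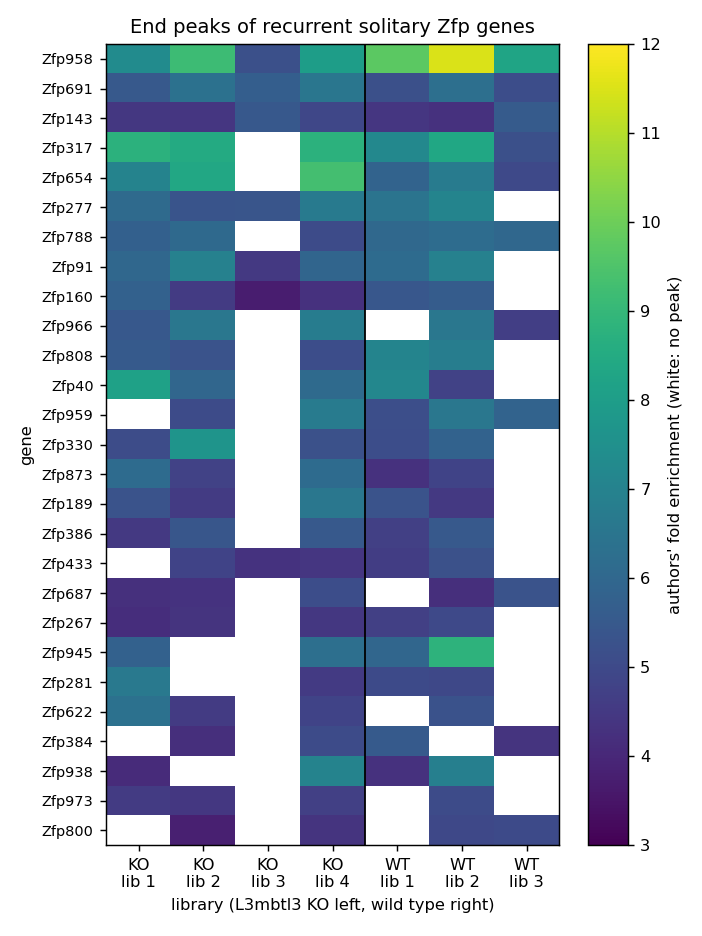
The 27 recurrent solitary Zfp genes (rows) in the 4 KO and 3 WT libraries (columns), coloured by the authors' fold enrichment of the highest end peak, with white for no peak. KO library 3 and WT library 3 called 7 and 11 of the 27 genes, while the others called 22 to 27.

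The recurrent genes were spread unevenly over libraries. KO libraries 1 to 4 called 23, 24, 7 and 27 of the 27, against 22, 26 and 11 in WT libraries 1 to 3. Of all 1383 recurrent genes the same libraries called 86.0%, 72.5%, 38.8% and 95.7% in KO, against 78.4%, 92.0% and 64.9% in WT. Recurrence uses these same calls, so the shares describe the lists and test nothing. Of the members 17 (11.2%) were called in a single library, against 10.1% of all genes, and 11 of the 17 (64.7%) lay in KO library 4, where the share over all such genes was 61.2%.

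By genotype, 33 solitary genes (21.7%) had the larger share of calling libraries in KO and 18 (11.8%) had it in WT, where all genes stood at 12.8% and 10.2%. Of the 33, 10 were called in 3 of 4 KO and 2 of 3 WT libraries, a gap that comes from the unequal group sizes. Without KO library 4, 9 members (5.92%) leaned to KO and 18 (11.8%) to WT, against 3.94% and 9.3% of all genes. Without WT library 3, 20 (13.2%) leaned to KO and 24 (15.8%) to WT, against 11.2% and 8.97%. None of the 152 was called in all 4 KO and no WT library, against 0.029% of all genes, and none in all 3 WT and no KO library, against 0.00968%. Fisher's exact test per gene gave 0 members with an unadjusted p under 0.05, where 0.0387% of all genes had one, and the smallest p among members was 0.429. Benjamini-Hochberg adjustment over all 20665 genes gave 1 for every member. With 3 against 4 libraries the smallest p the exact test allows is 0.0286, so that no gene can pass this adjustment.

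Members outside the recurrent set with the widest gaps were Zfp949, Zfp319 and Zfp521, each called in 2 of 4 KO and 0 of 3 WT libraries (Fisher's exact test p = 0.429). Zfp521, an Ebf cofactor that promotes neural fate in mouse embryonic stem cells, had end-peak folds of 4.44 and 4.06 in KO libraries 1 and 3. The peak of Zfp319, at 4.15 and 4.21 in KO libraries 3 and 4, also lay at an end of Usb1. Zfp949 had folds of 6.18 and 4.73 in KO libraries 1 and 4. In the WT direction no member outside the recurrent set differed by 2 libraries or more. Zfp950 and Zfp37, named after their values were seen, were each called in 1 of 4 KO and 2 of 3 WT libraries.

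Around the genes, 118 of the 152 loci (77.6%) held a peak in at least 1 library, against 70.7% over all genes. In at least 4 libraries 61 loci did (40.1%), against 29.0%, and 11 (7.24%) in all 7, against 7.16%. The solitary loci held 0.559, 0.408, 0.243 and 1.24 peaks per locus in KO libraries 1 to 4, against 0.546, 0.704 and 0.382 in WT libraries 1 to 3. The means were 0.613 ± 0.439 in KO and 0.544 ± 0.161 in WT (SD, n = 4 and 3), and all genes stood at 0.578 ± 0.445 and 0.493 ± 0.139. The difference of 0.0696 peaks was smaller than the SD of either genotype and was −0.14 without KO library 4 and −0.0115 without WT library 3. In an exact permutation test per gene of the library labels, no member had an unadjusted p under 0.05, where 0.0774% of all genes did with KO higher and 0.131% with WT higher, and every adjusted p was 1. The smallest p in this permutation test over all genes was 0.0286, the lowest that 35 splits allow. An adjusted p under 0.05 was thus out of reach for a single gene, and the adjusted values decide nothing.

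The lowest p among members was at Zfp91, with 2, 1, 2 and 5 peaks in KO libraries 1 to 4, against 1, 1 and 0 in WT libraries 1 to 3 (exact permutation p = 0.114, adjusted p = 1). Next came Zfp640 and Zfp839, each with no peak in any KO library and a peak in 2 of 3 WT libraries (exact permutation p = 0.143, adjusted p = 1). Zfp277 followed, with 3, 3, 1 and 6 peaks in KO libraries, against 2, 1 and 0 in WT libraries (exact permutation p = 0.171, adjusted p = 1). At Zfp91 and Zfp277 the highest value came from KO library 4, the longest list, and the lowest from WT library 3, and the genotypes overlapped. One region inside Zfp277 (chr12:40437486-40437687) was called in KO libraries 1, 2 and 4 and WT library 1.

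Merged over libraries, the loci held 248 regions, of which 55 lay at an end, 45 inside the span and 148 in the flanks. Of the end regions 27 (49.1%) were called in at least 4 libraries, against 8 (17.8%) inside spans and 35 (23.6%) in flanks. The share over all autosomal regions was 25.2%. These 27 end regions are those of the 27 recurrent members and so restate that count. Over all 4444 end regions of protein-coding genes the share was 26.8%, and over those of clustered Zfp genes it was 44.3%. The differences were not tested. None of the 248 regions in these loci was called in all libraries of 1 genotype and none of the other. Of all 24734 autosomal regions, 27 were in the KO direction and 30 in the WT direction, so few that none among 248 shows no contrast.

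Zfp704 had most peaks of the loci called in all 7 libraries. It held 2, 3, 2 and 5 peaks in KO libraries 1 to 4, against 2, 3 and 2 in WT libraries 1 to 3. A region inside the gene (chr3:9513693-9514085) was called in all 7 libraries with folds of 3.96 to 4.77, and another (chr3:9500416-9501017) in all but KO library 3. Only KO library 4 had a peak at an end of Zfp704, so its steady peaks lay within the span. Zfp958 held 2 peaks in every library, the second of them 44741 bp from the span at chr8:4677313-4678101. At Zfp959 a region 11914 bp away was called in all 7 libraries and lay in Zfp119a, at Zfp526 the region called in all 7 lay in Cic, and at Zfp930 it lay in Lzts1. Zfp945, Zfp949 and Zfp384 also held a peak in every library. The region called in all 7 libraries lay in a flank of the gene at Zfp945 and Zfp949, 28773 and 28321 bp from the span.

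**Figure D4:**
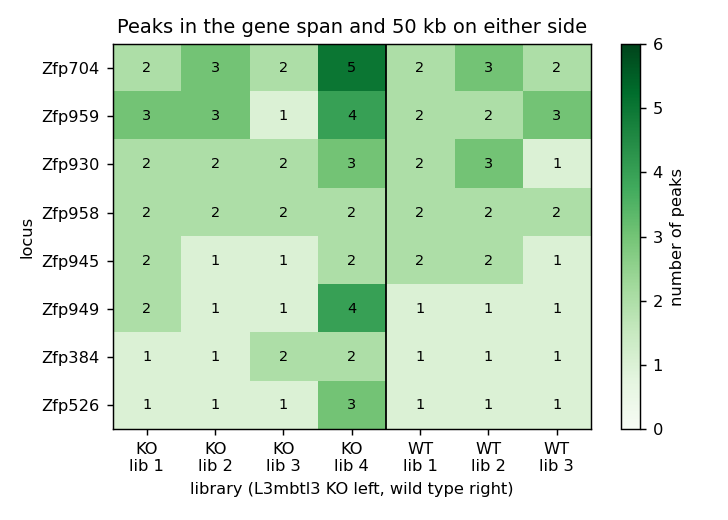
Number of peaks per locus, from 50 kb before to 50 kb after the span (numbers and colour) for the 8 solitary Zfp loci taken by number of libraries and then of peaks (rows; Zfp638, with as many as Zfp384 and Zfp526, came after them by name), in the 4 KO and 3 WT libraries (columns). Zfp958 has 2 peaks in every library, and Zfp704 has 5 in KO library 4 and 2 or 3 in the others.

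Of 23 solitary genes listed for neural development, 6 (26.1%) were called at an end in at least 1 library, near the 24.1% of all genes, and 1, Zfp687, was recurrent (4.35%, against 6.69%). In the locus 20 of them (87.0%) held a peak, against 77.6% of solitary genes and 70.7% of all genes. In at least 4 libraries 9 (39.1%) did so, against 40.1% of solitary genes and 29.0% of all genes. A longer span makes a wider locus, and the list holds long genes such as Zfp536, at 456017 bp, where the median of all genes was 17491 bp. The part of length was not tested. Zfp423 had 0, 0, 0 and 4 peaks in KO libraries 1 to 4, against 2, 1 and 0 in WT libraries 1 to 3, none at an end. Zfp703, a corepressor gene, had 0, 1, 1 and 2 peaks in KO libraries, against 1 in each WT library, and a region 15612 bp from it (chr8:26961449-26961724) was called in 3 of 4 KO and 3 of 3 WT libraries. Zfp536, a repressor of neuronal differentiation, had 0, 1, 0 and 3 peaks in KO libraries, against 0, 2 and 0 in WT libraries. Zfp488, Zfp64 and Zfp592 had no peak in any library. Of the 23 loci, 12 had a higher mean in KO and 6 in WT, where 41.7% of all genes had a higher mean in KO and 26.4% in WT. Among the 12, Zfp608, Zfp503, Zfp148 and Zfp207 held peaks in KO library 4 alone, the longest list. Zfp335 and Zfp219 held 1 peak each, in KO library 1 alone.

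Of 8 solitary genes listed for pluripotency, imprinting and the early embryo, 4 were recurrent, where 17.8% of solitary genes and 6.69% of all genes were. These were Zfp143, Zfp281, Zfp91 and Zfp277, and the roles given above for Zfp91 and Zfp277 are other ones. The list was drawn up with these calls known. Zfp57, which protects imprints from loss of DNA methylation, had no end peak, and its locus held 2, 0, 0 and 3 peaks in KO libraries 1 to 4, against 3, 3 and 2 in WT libraries 1 to 3. Both genotypes reached 3 peaks there, and both zeros came from KO libraries. Zfp42 (Rex1), a marker of embryonic stem cells, had no end peak, with 1, 0, 1 and 1 peaks in the locus in KO libraries, against 0, 1 and 0 in WT libraries. Zfp217 and Zfp296 had no peak in any library. Of 7 genes linked to RNA none was called at an end, where 24.1% of all genes were, and Zfp638 had a region in all 7 libraries that lay 58 bp from Paip2b. Among 10 cofactor genes of KRAB proteins, 6 had an end peak in at least 1 library, against 24.1% of all genes. All 6 were called in KO library 4, the longest list, and Setdb1 and Cbx1 in no other. Atf7ip, a partner of Setdb1, was the only recurrent gene of these, in 1 of 4 KO and 3 of 3 WT libraries, and Trim28, Cbx3, Dnmt1 and Uhrf1 had none.

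Starts of recurrent members often held CCAAT, as did those of recurrent genes of any name, and an Ets-type motif. A promoter window, 250 bases before to 50 after the start, was found for 25 of the 27 recurrent members, and 8 motifs were searched on both strands. CCAAT was held by 16 of the 25 (64.0%), against 39.1% of all 16457 promoters and 63.5% of those of all recurrent genes. CCGGAAG was held by 11 (44.0%), against 12.3% and 19.7%, and GGGCGG by 13 (52.0%), against 47.3% and 62.9%. The holders of CCAAT and of CCGGAAG both include Zfp966 and Zfp973, whose promoters share sequence with each other and with other genes. The holders are thus not all independent examples, and the shares were not tested. Of 42 recurrent clustered Zfp genes, 32 (76.2%) held CCAAT, 9 (21.4%) CCGGAAG and 18 (42.9%) GGGCGG. The E-boxes CAGCTG and CAGATG, of the type bound by proneural factors, were held by 5 (20%) and 4 (16.0%) of the 25 members. All promoters stood at 15.2% and 14.9%, those of all recurrent genes at 12.1% and 10.4%, and those of recurrent clustered Zfp genes at 16.7% and 11.9%. The NRF1 motif, TGACGTCA (a site of Creb factors) and the YY1 motif, searched as 1 fixed string each, were in none of the 25. All promoters stood at 1.37%, 2.40% and 1.25%, so low that none among 25 shows no contrast. A match is a description and not a site. Windows were found for 121 of the 152 members (79.6%), under the 80% set as the minimum, so the comparison over all members is void. The coverage of all protein-coding genes was also 79.6%, so the shares over all promoters describe the genes in the table alone.

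A longer element recurred in the starts of several members, chosen after the sequences were seen. It reads GTCACTCANNNNNNNNNNNCCAAT, where N is any base, and so contains the CCAAT searched above. It is shown for each solitary gene that holds it, with the fixed letters in capitals and the 11 spacer bases in lower case, on the strand of the gene.
Zfp958, chr8:4613086-4613109: GTCACTCAagactcattggCCAAT
Zfp959, chr17:55891993-55892016: GTCACTCAtgcctcactagCCAAT
Zfp938, chr10:82241341-82241364: GTCACTCAagcctcactagCCAAT
Zfp966, chr2:175931160-175931183: GTCACTCAagactcaatagCCAAT
Zfp973, chr2:176670465-176670488: GTCACTCAagactcaatagCCAAT
Zfp970, chr2:177464654-177464677: GTCACTCAagactcaatagCCAAT
Zfp967, chr2:176520921-176520944: GTCACTCAagactcaatagCCAAT
The element was held by 5 of 25 recurrent members (20%), by 6 of 42 recurrent clustered Zfp genes (14.3%), by 34 of 1151 recurrent genes of any name (2.95%) and by 59 of all 16457 promoters (0.359%). Of those 59 genes, 17 have a Zfp-plus-digits symbol and 32 a Gm-plus-digits symbol, and 34 were recurrent. Since the element was picked from starts of recurrent members, and many of its holders are near copies of one another, nothing is read from that count. A peak covered all 24 bases of the element at Zfp958 in 4 of 4 KO and 3 of 3 WT libraries, at Zfp959 in 2 of 4 and 3 of 3, at Zfp938 in 1 of 4 and 2 of 3, at Zfp966 in 3 of 4 and 2 of 3, and at Zfp973 in 3 of 4 and 1 of 3. It was covered in 0 of 4 and 1 of 3 at Zfp970 and in no library at Zfp967. Zfp959 starts 1009 bases inside its span in the promoter table, and its peaks lay 900 to 1066 bp from the start end.

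The 4 copies on chromosome 2 carry the same 24 bases and were called in 5, 4, 1 and 0 libraries (Zfp966, Zfp973, Zfp970 and Zfp967). Every 50-base window of the promoters of these 4 genes, and of Zfp781, also occurred in the promoter of another gene, so reads of that length there match more than 1 gene, and how the authors treated reads with several matches is not stated in any source at hand. Related copies are not independent examples of the element. Without these 5 members 25 recurrent members are left. In all, 19 of 121 member promoters shared at least 1 such window with another gene, which includes starts facing each other, such as those of Zfp277 and Dock4. Of the 25 recurrent members with a promoter window, 8 did so. Among them Zfp433 shared 70.5% of its windows with Gm32687, and Zfp959 shared 32.7% with Zfp119a and Zfp119b.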

How the data were processed

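ATAC-seq was done on CD15-positive progenitors using Nextera reagents, as the labels' protocols say. The tools in the submitters' processing notes are MACS2, deepTools 3.3.0, SAMtools 1.9, Bowtie2 2.3.5.1, FastQC 0.11.8 and CASAVA 1.9, on GRCm38. Settings, read filters and a transposase shift were not given in the sources used here. Per library the authors deposited 1 broad peak list, not pooled, with a fold enrichment (the ratio of peak signal to background), a −log10 p and −log10 q, and a score that was not used. The smallest deposited −log10 q was 1.30 to 1.32. Peak lists carry no read depth, so no counting interval was set.

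Peaks were set against gene spans and promoter sequences of RefSeq GRCm38.p6, counted from 1, with an overlap of at least 1 bp (Python 3.11.15, NumPy 2.4.6, pandas 2.3.3, SciPy 1.17.1). Calls per gene were compared by Fisher's exact test and locus counts by an exact permutation test, both two-sided and adjusted over all 20665 genes. The code was tested on simulated calls and peaks. The members, lists and tests were chosen with earlier results of these data known. Named were all recurrent members, up to 6 others per direction that differed by at least 2 libraries, the 8 loci with most libraries, and the listed genes. Counts of C2H2 fingers per protein were planned and are not analysed here. Alternatives were other windows, flanks, overlaps, distances and peak thresholds, equal lists, leaving out each library and a replicate block.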

Additional observations from a re-analysis of the deposited data

Results flagged for a closer look

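Zfp930 and Zfp526 were flagged for a single KO library, by a gap test on the 4 KO values that flags about 1 in 20 groups of continuous values by chance. That rate does not hold here, since in small whole counts with 3 ties any single different value is flagged. It was applied to 16 groups of values. Zfp930 held 3 peaks in KO library 4, against 2 in each other KO library, and 2, 3 and 1 in WT libraries 1 to 3. Zfp526 held 3 peaks in KO library 4, against 1 in each other library of either genotype. The 2 loci do not stand out among all members. Zfp638, which was not among the groups examined, had the same counts as Zfp526. Nor were Zfp423 and Zfp292 examined, with 4 and 3 peaks in KO library 4 and 0 in each other KO library. KO library 4 had the longest list, with 17362 peaks, and its part in these values was not tested.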

How the results depend on the processing

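The difference between KO and WT in the share of solitary genes with an end peak was 1.92 points. It kept its sign or was 0 with peaks of −log10 q of at least 5, equal lists of 3366 peaks, windows of 2.5 and 0.5 kb, 50% of the peak inside the window and a solitary distance of 250 kb, and ran from −2.41 to 5.70 with single libraries left out. The difference in peaks per locus, 0.0696, kept its sign under the same peak and distance settings and with a flank of 10 kb, and ran from −0.14 to 0.193 with single libraries left out. A replicate block over same-numbered libraries 1 to 3 gave −2.41 points and −0.14 peaks. That block leaves out KO library 4, and the numbers were not shown to pair the libraries, since deviations of same-numbered libraries correlated at −0.0635, −0.012 and 0.314. Only libraries 3 correlated best with their own number.

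The excess of solitary over all genes, 8.11 points, was 3.21 with −log10 q of at least 5 and ran from 7.39 to 9.16 with single libraries left out. The 27 recurrent members became 5 at that threshold and 13 with equal lists, both of which hold fewer peaks, and 20 to 27 with single libraries left out. Members leaning to KO, 33, became 12 at that threshold, 16 with equal lists, and 9 to 32 with single libraries left out, lowest at 9 without KO library 4 and 20 without WT library 3. At that threshold and with equal lists, recurrent and leaning genes were not counted over all genes. Members called in every library of 1 genotype and none of the other stayed at 0 in every setting tried. Unknown read depth limits every count.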
